A study of Drosophila melanogaster with 3 samples.

Results

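The genes of the Enhancer of split complex, E(spl), were taken as those of the complex on chromosome arm 3R of Drosophila melanogaster, by their names in the gene annotation. The 10 genes described are 7 that encode basic helix-loop-helix (bHLH) repressors, E(spl)mdelta-HLH, E(spl)mgamma-HLH, E(spl)mbeta-HLH, E(spl)m3-HLH, E(spl)m5-HLH, E(spl)m7-HLH and E(spl)m8-HLH, and 3 that encode Bearded family proteins, E(spl)malpha-BFM, E(spl)m2-BFM and E(spl)m4-BFM, of 13945 protein-coding genes in all. The annotation names 11 genes E(spl) on 3R. The other, E(spl)m6-BFM, is given beside them, as is the flanking gene gro. The complex spans 43.4 kb, and peaks were taken from it and 5 kb on either side, chr3R:25992621-26046008 on the dm6 assembly, a window of 53.4 kb.

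The measurement was chromatin immunoprecipitation followed by sequencing (ChIP-seq) of B-H1, a Bar class homeodomain transcription factor, fused to enhanced green fluorescent protein. It was made in whole transgenic embryos, 8 to 24 h old by the source label (a separate age label disagrees and was not used), with an antibody against GFP, and the control experiment that the labels name was not analysed here. There were 3 biological replicates of 1 group, each with a ranked list of candidate peaks and a shorter thresholded list cut at an irreproducible discovery rate (IDR) of 0.01, a −log10 global IDR of 2, and the series has a conservative list made from all of them. Whole embryos hold many cell types, so a peak is a pooled value over all of them, and depth was not given in the sources used here.

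When Notch is activated on a cell, the transcription factor Su(H) switches from repression to activation, and the E(spl) genes are among its best known direct targets. Their bHLH proteins recruit the corepressor Groucho, the product of gro, and shut off proneural genes such as those of the achaete-scute complex, so that a cell does not become a neural precursor. The Bearded family proteins of the complex antagonise Neuralized, the ubiquitin ligase that activates Notch ligands. Bar genes are known for roles in the same sensory organs in which this lateral inhibition acts.

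The peaks of the window lay mostly in its left part and at its right edge. It held 5, 8 and 7 thresholded peaks in replicates 1, 2 and 3, which merged into 9 regions, numbered 1 to 9 from left to right. Of these, 4 had a peak in every replicate: region 1 beyond the E(spl)mdelta-HLH end of the complex, region 3 upstream of E(spl)malpha-BFM, region 7 upstream of E(spl)m3-HLH, and region 9 in an intron of gro. Regions 1 and 9 lie outside the outer ends of the E(spl) genes. E(spl)m3-HLH was the only one of the 10 genes with the summit of such a region within 1 kb of its transcript start site (TSS). Over all protein-coding genes 7.90% had one, so 1 gene of 10 was close to the background share.

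**Figure D1:**
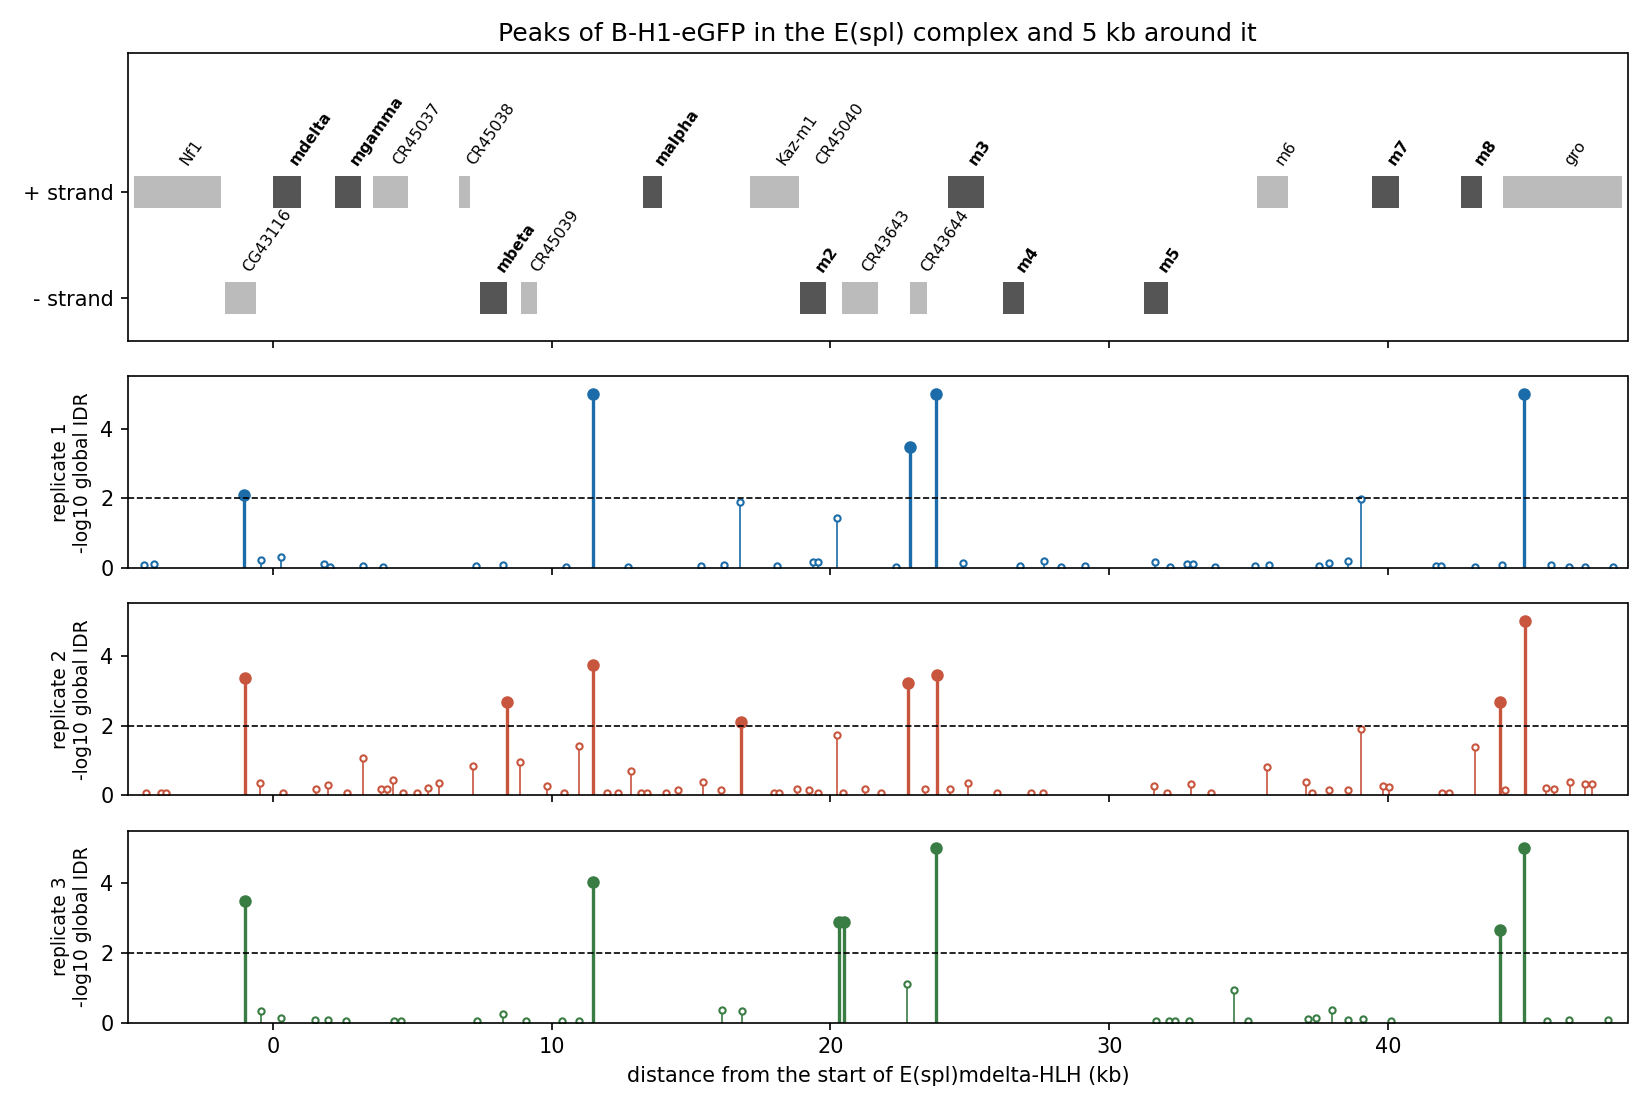
Genes of the E(spl) window by strand, with the 10 genes in bold and dark (top), and the −log10 global IDR of every ranked peak at its summit in replicates 1, 2 and 3 (below), against distance from the start of E(spl)mdelta-HLH in kb. Filled circles are thresholded peaks, open circles ranked peaks that were not, and the dashed line marks a −log10 global IDR of 2; a stretch of 19.9 kb from just upstream of E(spl)m3-HLH to just upstream of gro holds no filled circle.

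The 4 windows of 200 bp centred on the summits of these regions are printed here because they carry the peaks that every replicate shared. They are read from Release 6 of the genome, whose coordinates are those of dm6. Capitals mark TAATTG or its reverse complement CAATTA, a word of Bar class homeodomains and the only 1 of 11 searched words found in them.
Region 7, upstream of E(spl)m3-HLH, chr3R:26021314-26021513, + strand: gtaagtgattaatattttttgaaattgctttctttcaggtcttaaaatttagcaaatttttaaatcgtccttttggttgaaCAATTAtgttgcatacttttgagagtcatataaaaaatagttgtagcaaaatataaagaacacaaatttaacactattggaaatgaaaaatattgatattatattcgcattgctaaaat
Region 3, upstream of E(spl)malpha-BFM, chr3R:26008985-26009184, + strand: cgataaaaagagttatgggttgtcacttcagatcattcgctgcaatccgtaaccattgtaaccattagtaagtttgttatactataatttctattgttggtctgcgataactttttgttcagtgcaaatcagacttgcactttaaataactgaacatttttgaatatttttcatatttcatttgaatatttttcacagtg
Region 1, upstream of E(spl)mdelta-HLH, in CG43116, chr3R:25996496-25996695, + strand: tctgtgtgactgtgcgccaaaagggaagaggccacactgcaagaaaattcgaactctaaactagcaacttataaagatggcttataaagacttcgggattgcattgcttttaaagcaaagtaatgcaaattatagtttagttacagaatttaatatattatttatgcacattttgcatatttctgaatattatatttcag
Region 9, in an intron of gro, chr3R:26042430-26042629, + strand: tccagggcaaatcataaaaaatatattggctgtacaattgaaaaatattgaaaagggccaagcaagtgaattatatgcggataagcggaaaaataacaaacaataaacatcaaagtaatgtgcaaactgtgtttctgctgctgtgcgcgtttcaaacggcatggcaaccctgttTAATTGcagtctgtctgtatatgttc
TAATTG stood 19 bp before the summit of region 7, where it was read on the minus strand, and 74 bp after that of region 9. The windows of regions 1 and 3 held none of the 11 words. Over all 1375 regions with a peak in every replicate, 19.9% of such windows held TAATTG on either strand, and 18.5% of the 200 bp stretches upstream of 13945 protein-coding genes did. The median GC content of the 4 windows was 31.3%, within the spread of the 1375, whose median was 34% with an SD of 6.17.

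Among the bHLH genes, E(spl)m3-HLH (FBgn0002609, chr3R:26021823-26023127, plus strand), a Notch-responsive repressor gene, had the strongest peaks. Region 7 (chr3R:26021264-26021608) is intergenic, and its summits lay 409, 364 and 408 bp upstream of the TSS of E(spl)m3-HLH in replicates 1, 2 and 3. The authors' signal was 113, 76.8 and 84.2, at percentiles 79.9, 58.9 and 69.0 of the replicates' thresholded lists, a mean percentile of 69.3 ± 10.5 (SD, n = 3). The peaks were thus in the upper part of each list, well inside the threshold, with a −log10 global IDR of 5, 3.46 and 5. The gene of a long non-coding RNA, lncRNA:CR43644, is transcribed away from E(spl)m3-HLH on the other side of the peak, and its TSS was the nearer in replicates 1 and 3, at 338 and 339 bp. In replicate 2 and in the conservative list, where the summit was 361 bp upstream of E(spl)m3-HLH, the bHLH gene was nearest. Which of the pair of start sites goes with the peak was not tested.

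Region 6 (chr3R:26020269-26020613), also intergenic, lay farther upstream of E(spl)m3-HLH, at 1359 bp in replicate 1 and 1404 bp in replicate 2. Its signal was 53.7 and 69.1, at percentiles 35.7 and 50.9 of the thresholded lists. Replicate 3 had a ranked peak there that missed the threshold, with a signal of 28.6 and a −log10 global IDR of 1.10. The nearest TSS was that of lncRNA:CR43644, 612 and 657 bp away, and the summits lay past the end of that gene. The conservative list held a peak over region 6.

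E(spl)mdelta-HLH (FBgn0002734, chr3R:25997621-25998633, plus strand), the bHLH gene at the left end of the complex, lay just past the 1 kb limit from region 1 (chr3R:25996429-25996762). The summits were 1042, 1025 and 1008 bp upstream of its TSS, in an intron of the neighbouring gene CG43116, whose own TSS was 417, 400 and 383 bp away. Signal was 36.7, 69.1 and 59.1, at percentiles 5.61, 50.9 and 45.3 of the thresholded lists, a mean of 33.9 ± 24.7 (SD, n = 3). Replicate 1 stood apart here: its peak was near the bottom of its list, with a −log10 global IDR of 2.09 against 3.36 and 3.48.

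E(spl)mbeta-HLH (FBgn0002733, chr3R:26005046-26006023, minus strand) had a thresholded peak at its TSS in replicate 2 alone. The summit of this region 2 (chr3R:26005868-26006167) fell 5 bp inside the 5′ UTR, with a signal of 57.9, percentile 35.1 and a −log10 global IDR of 2.68. Ranked peaks that met the region in replicates 1 and 3 had a −log10 global IDR of 0.079 and 0.242 and signals of 17.1 and 15.0, so the replicates did not share this site. Their summits were 168 and 169 bp inside the gene. The conservative list held no peak there.

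E(spl)m7-HLH (FBgn0002633, chr3R:26037038-26038019, plus strand) had a peak just below the threshold in replicates 1 and 2. The summits were 368 and 365 bp upstream, signal was 36.5 and 54.6, and the −log10 global IDR was 1.99 and 1.90. In replicate 3 the overlapping ranked peak had a signal of 17.0 and a −log10 global IDR of 0.095. E(spl)mgamma-HLH (FBgn0002735), E(spl)m5-HLH (FBgn0002631) and E(spl)m8-HLH (FBgn0000591) had no thresholded summit within 1 kb in any replicate. Their nearest thresholded summits were 3272, 3255 and 3238 bp away for E(spl)mgamma-HLH, 8321, 8276 and 8320 bp for E(spl)m5-HLH, and 2264, 1398 and 1395 bp for E(spl)m8-HLH.

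Of the Bearded family genes, E(spl)m2-BFM (FBgn0002592, chr3R:26016514-26017470, minus strand) was the only gene with a thresholded summit within 1 kb, in replicate 3. That peak of region 5 (chr3R:26017766-26018264) lay 446 bp upstream, with a signal of 42.6, percentile 18.8 and a −log10 global IDR of 2.89. Replicates 1 and 2 had ranked peaks 393 and 382 bp upstream, with signals of 30.3 and 44.9 and a −log10 global IDR of 1.44 and 1.74. All 3 were thus at nearly the same place, on either side of the threshold. The conservative list, made from all the replicates, held a peak 397 bp upstream, at percentile 26.4 of that list.

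Replicate 3 listed a further peak in region 5, 645 bp upstream, whose signal of 3.88 was at percentile 0.568 of its thresholded list and 6.61 of its ranked list. It overlapped the stronger peak and had nearly the same −log10 global IDR, 2.888 against 2.890. Peaks that overlap another of their own list made up 3.65%, 7.32% and 5.37% of the thresholded lists. Counting such pairs once gave 5, 8 and 6 peaks in the window, a choice made after seeing the data.

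E(spl)malpha-BFM (FBgn0002732, chr3R:26010893-26011568, plus strand) had its nearest thresholded peak well upstream, at 1808, 1776 and 1786 bp. This region 3 (chr3R:26008935-26009266) is intergenic, and no annotated TSS was closer to it. Signal was 102, 93.8 and 66.9, at percentiles 77.0, 71.1 and 54.7, a mean of 67.6 ± 11.6 (SD, n = 3), with a −log10 global IDR of 5, 3.72 and 4.01. It was second to region 7 by mean percentile among the regions between the ends of the complex, and the pair differed by less than their spread over replicates. E(spl)m4-BFM (FBgn0002629) had no thresholded summit closer than 3165, 3120 and 3164 bp, and E(spl)m6-BFM (FBgn0002632) none closer than 9593, 8727 and 8724 bp. Kaz-m1, a gene of the complex that belongs to neither family, had a thresholded peak in replicate 2 alone, region 4 (chr3R:26014255-26014554), 316 bp upstream with a signal of 43.9 and a −log10 global IDR of 2.11. Replicates 1 and 3 had ranked peaks there with a −log10 global IDR of 1.88 and 0.324.

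The strongest peaks of the window were those of region 9, at its right edge. Region 9 (chr3R:26042428-26042593) lay in an intron of gro (FBgn0001139), the corepressor gene that flanks the complex, 137, 111 and 124 bp upstream of a TSS within the gene. Signal was 163, 232 and 192, at percentiles 90.8, 95.0 and 93.7, a mean of 93.2 ± 2.12 (SD, n = 3). The peaks were narrow, 120, 166 and 158 bp wide, and the −log10 global IDR was 5 in every replicate. Region 8 (chr3R:26041485-26041787) lay at the first gro TSS, 98 and 101 bp upstream in replicates 2 and 3, with signals of 57.4 and 42.0. Replicate 1 missed it, with a ranked peak at a −log10 global IDR of 0.088.

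**Figure D2:**
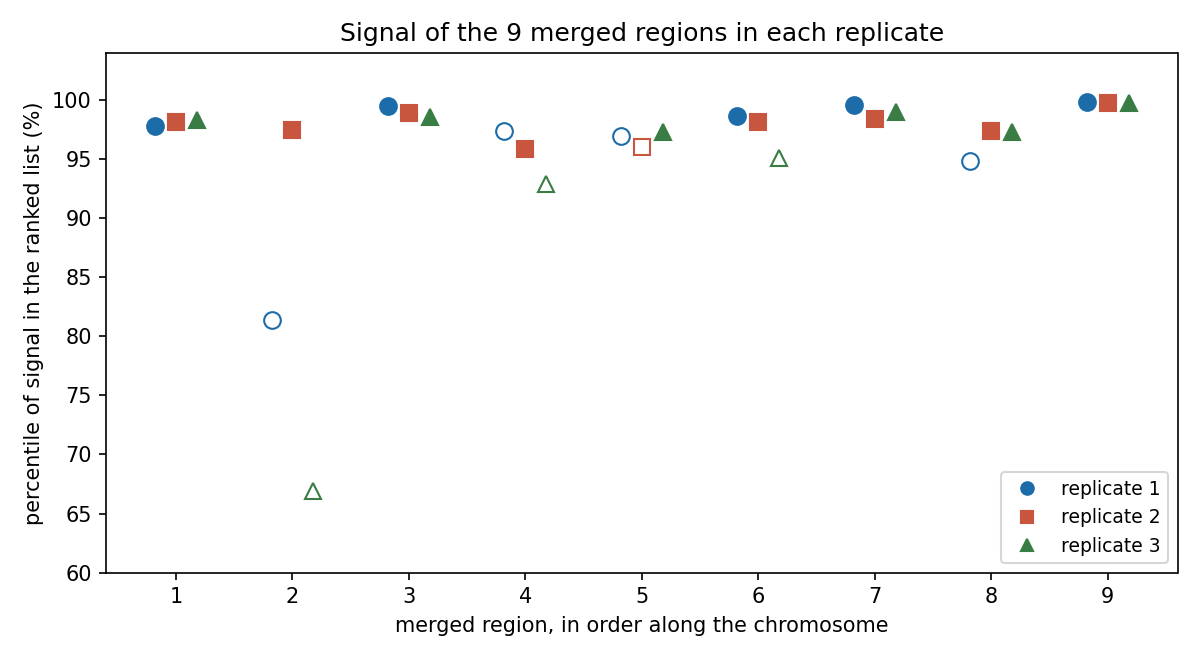
Percentile of the authors' signal within each replicate's ranked list (vertical axis, %, starting at 60) for merged regions 1 to 9, in order along the chromosome. Filled symbols are thresholded peaks and open symbols ranked peaks that were not; where a replicate has several peaks in a region the highest is drawn, and region 2 has the widest spread, from 66.9 to 97.5.

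Assigned to its nearest TSS of any annotated gene, a thresholded peak of the window went to a gene of the 10 in 1 of 5, 3 of 8 and 3 of 7 cases. E(spl)malpha-BFM received 1 peak in each replicate, E(spl)mbeta-HLH and E(spl)m3-HLH 1 each in replicate 2, and E(spl)m2-BFM both peaks of region 5 in replicate 3. The rest went to CG43116, Kaz-m1, lncRNA:CR43644 and gro. By this rule the bHLH genes received no thresholded peak in replicates 1 and 3. Of all ranked peaks of the window, 25 of 49, 36 of 74 and 17 of 37 went to the 10 genes. The bHLH genes received 16, 21 and 14 of these. With 5 to 8 thresholded peaks per replicate, no more can be read from these counts.

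By distance, 1 of the 10 genes, E(spl)m3-HLH, had a thresholded summit within 1 kb in replicate 1, against 10.7% of all protein-coding genes. In replicate 2 there were 2, E(spl)mbeta-HLH and E(spl)m3-HLH, against 16.5%. In replicate 3 there were 2, E(spl)m2-BFM and E(spl)m3-HLH, against 11.8%. The conservative list gave E(spl)m2-BFM and E(spl)m3-HLH, against 14.4%. These shares were close to the background or above it by 1 gene, and with 10 genes no more can be read from them. The median distance from a gene to the nearest summit shared by every replicate was 3.11 kb over the 10 genes and 26.9 kb over all protein-coding genes, but neighbouring genes shared their nearest summits.

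From the right end of region 7 to the left end of region 8, chr3R:26021609-26041484, no replicate had a thresholded peak. This stretch of 19.9 kb holds 5 of the 10 genes whole, E(spl)m3-HLH, E(spl)m4-BFM, E(spl)m5-HLH, E(spl)m7-HLH and E(spl)m8-HLH, and E(spl)m6-BFM. It was picked as the longest such gap of the window. The 133881 kb of the 6 chromosome arms held 4085 merged regions, a mean spacing longer than 19.9 kb, so its length does not set it apart. The stretch was not empty of candidate peaks, with 19, 20 and 12 ranked peaks in replicates 1, 2 and 3.

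Ranked peaks were common near the start sites of the 10 genes. Within 1 kb, 7 of the 10 had a ranked summit in each of the replicates, against 47.0% of all protein-coding genes. E(spl)malpha-BFM, E(spl)m4-BFM and E(spl)m8-HLH had none in replicate 3. The median percentile of the highest ranked peak, within the ranked list, was 90.7 and 88.8 over the 10 genes in replicates 1 and 2 and 90.5 over the 7 with a peak in replicate 3. Over all protein-coding genes with a peak, it was 79.7, 86.9 and 78.1.

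Gene by gene, E(spl)m3-HLH was highest on this scale, at a mean of 99.0 ± 0.58 (SD, n = 3), followed by E(spl)m2-BFM at 96.8 ± 0.69. E(spl)m7-HLH came next at 93.1 ± 7.59, with replicate 3 the low one at 84.4. Its highest peak lay 368 and 365 bp upstream in replicates 1 and 2 but 847 bp upstream in replicate 3. On this scale a gene's highest peak can be at a different site in each replicate, so the SDs do not measure agreement at a site. E(spl)mbeta-HLH, E(spl)mdelta-HLH, E(spl)mgamma-HLH and E(spl)m5-HLH had means of 81.9 ± 15.3, 81.8 ± 15.8, 78.6 ± 16.1 and 77.2 ± 24.2. These 4 did not differ beyond their spread, and no replicate was low in all of them. Of the genes with a peak in replicates 1 and 2 only, E(spl)m8-HLH was at 90.0 and 92.7, E(spl)m4-BFM at 88.1 and 42.6, and E(spl)malpha-BFM at 38.5 and 76.4.

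**Figure D3:**
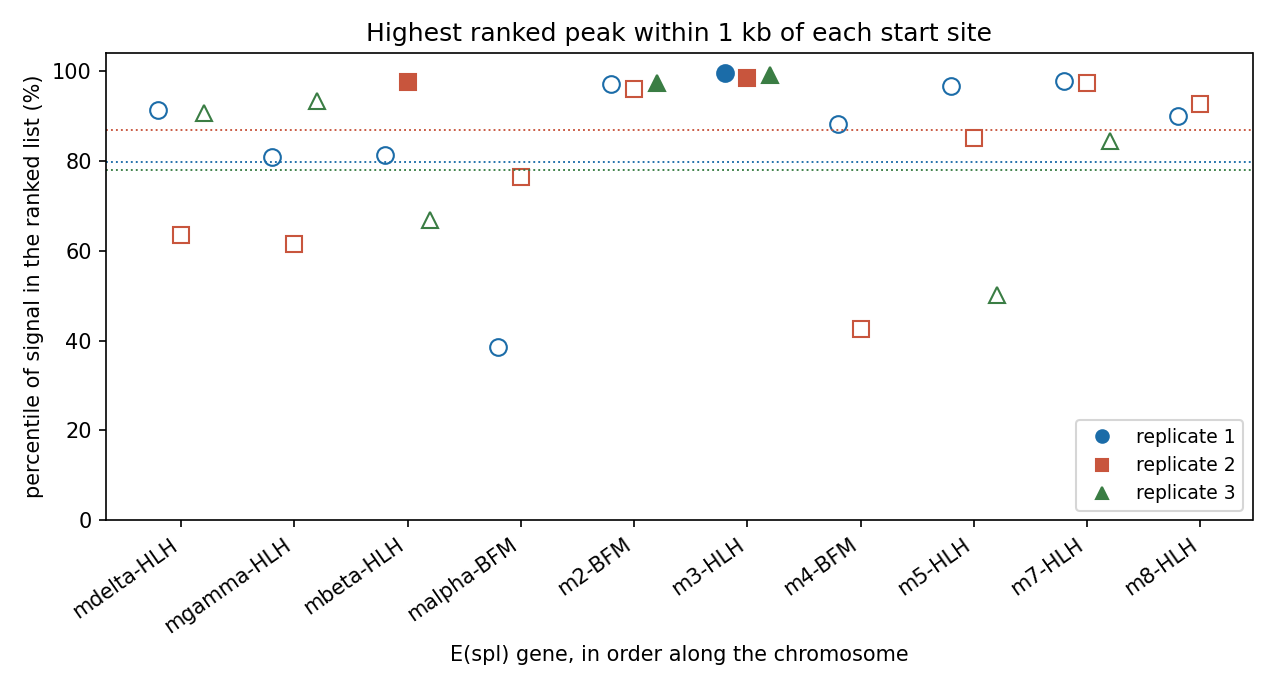
Percentile of signal, within the ranked list, of the highest ranked peak within 1 kb of the TSS of each E(spl) gene (vertical axis, %) by replicate. Filled symbols passed a −log10 global IDR of 2, open symbols did not, an absent symbol means no ranked peak, and dotted lines mark the medians over all protein-coding genes, 79.7, 86.9 and 78.1; E(spl)m3-HLH is filled in every replicate.

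As a stretch of chromosome, the complex carried more peaks than its length would give at the mean density. The window held 0.937, 1.50 and 1.31 thresholded peaks per 10 kb in replicates 1, 2 and 3, a mean of 1.25 ± 0.286 (SD, n = 3), against 0.147, 0.270 and 0.164 over the 6 chromosome arms. The window was above the arms in every replicate. Ranked peaks differed less, with 9.18, 13.9 and 6.93 per 10 kb against 7.58, 7.32 and 5.45. Of 2504 windows of the same length along the arms, 1.44% had at least 4 regions shared by every replicate, and 1643 had 0. At least as many thresholded peaks stood in 1.40%, 1.20% and 0.439% of windows in replicates 1, 2 and 3.

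The window was also rich in genes. It held the starts of 14 protein-coding genes, against a median of 4 per window, and 7.99% of windows held at least as many. The part of gene number in the count of peaks was not tested. Between the outer ends of the E(spl) genes alone, the counts were 3, 5 and 4 thresholded peaks and 2 regions shared by every replicate, so 2 of the 4 shared regions belonged to the flanks.

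Other gene complexes of transcription factors had fewer thresholded peaks for their length. The achaete-scute complex, whose proneural genes the E(spl) proteins repress, had no thresholded peak in any replicate over 103 kb. The Antennapedia and bithorax complexes of homeotic genes held 5, 6 and 6 peaks over 348 kb and 2, 4 and 4 over 326 kb. The Iroquois complex, whose homeodomain factors prepattern proneural genes, held 1 peak over 140 kb, in replicate 2. Per 10 kb, the means were 0.163 for the Antennapedia, 0.102 for the bithorax and 0.0239 for the Iroquois complex, each below the 1.25 of the E(spl) window. Ranked peaks differed less. In replicates 1, 2 and 3 the E(spl) window held 9.18, 13.9 and 6.93 per 10 kb. The Iroquois complex held 9.10, 10.4 and 6.38, and the Antennapedia complex 8.05, 6.27 and 6.61. For the bithorax complex they were 7.95, 7.34 and 6.48, and for the achaete-scute complex 6.69, 2.91 and 3.97. The part of gene number in these densities was not tested. With 1 group of samples these values were compared as descriptions only.

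**Figure D4:**
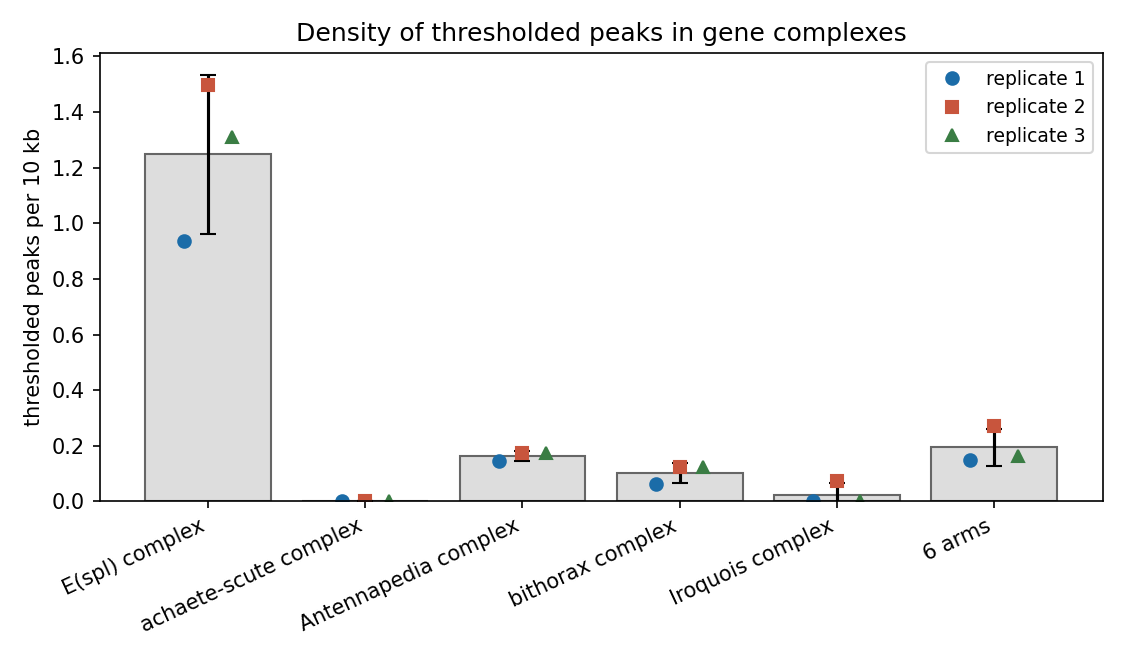
Thresholded peaks per 10 kb (vertical axis) in the E(spl) complex, 4 other gene complexes, each with 5 kb on either side, and the 6 chromosome arms. Bars are means and error bars SD over 3 replicates, drawn as symbols; the E(spl) values, from 0.937 to 1.50, lie above all other values.

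In the rest of the Notch pathway, 4 of 26 genes had a summit shared by every replicate within 1 kb: aph-1, which encodes a gamma-secretase subunit, gro, numb, which encodes an inhibitor of Notch, and rumi, which encodes a glucosyltransferase of Notch. The gro summit is that of region 9, already counted in the E(spl) window. The share over all protein-coding genes was 7.90%. By replicate, 5, 12 and 4 of the 26 had a thresholded summit, where all protein-coding genes gave 10.7%, 16.5% and 11.8%. Replicate 2, whose thresholded list was the longest, thus counted more of these genes than the others. The numb peaks had signals of 158, 115 and 117, at a mean percentile of 84.6 ± 5.17 (SD, n = 3), above region 7 in each replicate. None of the 4 annotated Bearded family genes outside the complex had a thresholded summit within 1 kb in any replicate, beside the same shares over all protein-coding genes. With 4 genes no more can be read from this, and 2 further listed genes had no match in the annotation.

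Words bound by Su(H) stood upstream of most of the E(spl) genes. The 200 bases before the TSS held GTGGGAA, a Su(H) word, on either strand in E(spl)m4-BFM, E(spl)m5-HLH and E(spl)m8-HLH, 3 of 10 genes, against 2.38% of all protein-coding genes. With GTGAGAA added and 400 bases taken, 6 of 10 held a Su(H) word, against 8.08%. The 3 promoters with the word are printed, with that of E(spl)m3-HLH, whose 200 bases held no searched word. The summits of its peak lay farther upstream, at 364 to 409 bp, outside the printed stretch. The remaining genes of the 10 had neither GTGGGAA in these 200 bases nor a shared summit within 1 kb. Capitals mark any of the 11 words or its reverse complement; GTGGGAA appears as TTCCCAC.
E(spl)m4-BFM promoter, chr3R:26024580-26024779, - strand: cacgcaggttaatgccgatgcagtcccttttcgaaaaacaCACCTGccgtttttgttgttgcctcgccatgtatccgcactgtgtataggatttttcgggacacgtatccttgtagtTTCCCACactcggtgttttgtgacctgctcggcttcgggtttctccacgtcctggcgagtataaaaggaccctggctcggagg
E(spl)m5-HLH promoter, chr3R:26029736-26029935, - strand: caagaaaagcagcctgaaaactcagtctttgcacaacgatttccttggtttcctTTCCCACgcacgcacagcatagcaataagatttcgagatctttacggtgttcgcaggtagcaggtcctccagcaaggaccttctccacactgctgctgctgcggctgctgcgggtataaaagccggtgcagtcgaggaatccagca
E(spl)m8-HLH promoter, chr3R:26040040-26040239, + strand: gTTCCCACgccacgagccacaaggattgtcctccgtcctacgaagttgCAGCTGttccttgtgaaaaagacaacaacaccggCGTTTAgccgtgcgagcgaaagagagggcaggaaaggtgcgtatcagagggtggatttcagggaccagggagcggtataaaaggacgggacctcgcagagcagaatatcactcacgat
E(spl)m3-HLH promoter, chr3R:26021623-26021822, + strand: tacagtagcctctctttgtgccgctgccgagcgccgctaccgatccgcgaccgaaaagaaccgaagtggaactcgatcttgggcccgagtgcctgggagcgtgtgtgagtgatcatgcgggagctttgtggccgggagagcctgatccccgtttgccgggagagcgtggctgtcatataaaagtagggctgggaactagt
The words of E boxes of proneural factors, CAGCTG and CAGGTG, stood in the promoters of E(spl)m4-BFM, E(spl)m7-HLH and E(spl)m8-HLH, against 16.9% of all promoters. CACGTG, an E box of Hairy and E(spl) class (HES) proteins, stood in those of E(spl)mdelta-HLH and E(spl)m7-HLH, against 2.22%. The other HES word, CACGCG, was in none of the 10, against 3.35%. The same held for TAATTG of the Bar class, whose share of all promoters is given above, for the homeodomain core TAATTA, against 15.4%, and for the DREF core word, TATCGA, against 22.3%. The other Bar class word, TAAACG, stood in the promoter of E(spl)m8-HLH, against 9.82%. The word of the Trithorax-like factor, GAGAGA, stood in that of E(spl)m7-HLH, against 9.25%. These matches are letters in a window and were not tied to binding.

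None of the 4 shared peak windows held a Su(H) word, against 4.51% of the 1375, and with 4 windows no more can be read from this. The nearest Su(H) word lay 638 bp from the summit of region 7, 401 bp from region 3, 251 bp from region 1 and 378 bp from region 9. The whole E(spl) window of 53.4 kb held 49 Su(H) words over both strands, so these distances do not set the peaks apart. Among the regions not shared by every replicate, region 6 held GTGAGAA, 75 bp before its summit, and TAATTA, a homeodomain core word, 45 bp after it. TAATTA also stood in the windows of regions 4, 5 and 8, and 19.2% of the 1375 windows held it. Region 2, at E(spl)mbeta-HLH, held none of the 11 words and had a GC content of 53.5%.

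**Figure D5:**
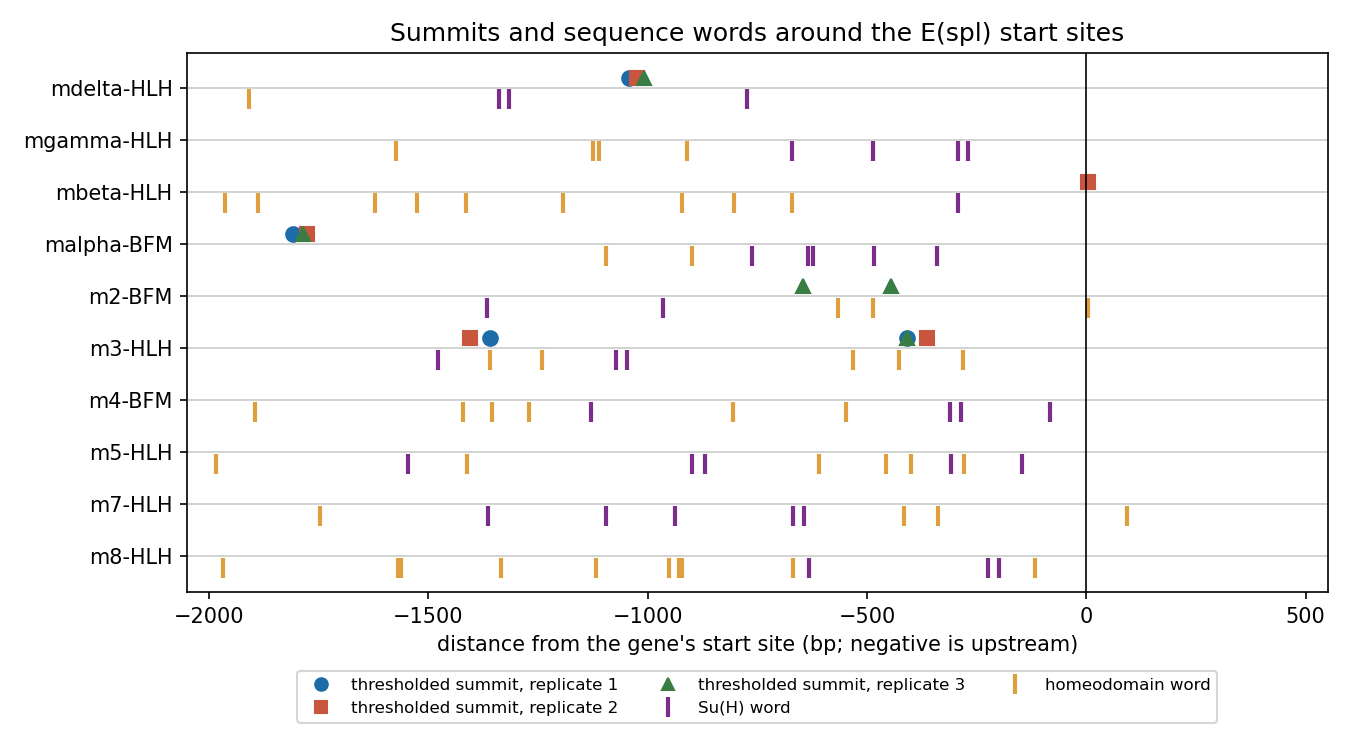
Thresholded summits of each replicate (symbols above each line) and Su(H) and homeodomain words on either strand (ticks below it) from 2 kb upstream to 500 bp downstream of the TSS of each E(spl) gene, horizontal axis in bp. The summits at E(spl)m3-HLH lie 364 to 409 bp upstream. The genes with Su(H) words nearest the TSS, E(spl)m4-BFM, E(spl)m5-HLH and E(spl)m8-HLH, have no thresholded summit within 1 kb. Neither do E(spl)mdelta-HLH, E(spl)mgamma-HLH, E(spl)malpha-BFM and E(spl)m7-HLH, so the lack of a summit does not set the former apart.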

How the data were processed

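Per the labels, the authors deposited a ranked and a thresholded peak list on dm6 for each replicate. Each came from that replicate's alignments and 1 further shared file of unstated role, so the lists are not fully independent. No source used here names the aligner or caller or gives the read depth. The signal and the score of a peak are as deposited, with no stated scale, and were used only within a list. The −log10 global IDR is as the authors deposited it. No peak of the window exceeded 5, a value shared by peaks with signals from 84.2 to 232. It may be an upper limit of the scale, so peaks at 5 may not be equal. Left out were 32 per-sample columns in ranked lists of the whole series, whose replicate is not stated. Genes came from Ensembl release 115 and sequence from Release 6 of the genome; 99.8% of 30593 annotated start codons read ATG there.

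With Python 3.11.15, peaks on the 6 chromosome arms were merged where they overlapped by at least 1 bp. For a region's summit, the replicate with the highest percentile there was taken. A percentile is the share of the replicate's list with a lower signal, with ties counted in part. A summit within 1 kb of a TSS can count for neighbouring genes, and counts of regions are given beside those of genes. Words were searched on both strands in 200 bp. Of the listed symbols, 3 were older names, looked up under current ones, and 2 had no match.

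Genes named were the 10 members, other E(spl) genes on 3R, genes nearest to a peak of the window, gro, and listed genes with a shared summit within 1 kb. The members, lists and words were chosen with earlier results of these data known. There was 1 group, so no test was run and errors are SDs over 3 replicates. The steps were checked on simulated peaks. Alternatives changed the margin, the IDR, the overlap rule, the distance, the window, the list and the replicates used.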

Additional observations from a re-analysis of the deposited data

How the results depend on the processing

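The mean of 6.67 thresholded peaks in the window became 4 without the margin around the complex and 4.33 at a −log10 global IDR of at least 3. The 4 shared regions became 2 without the margin and 7 peaks in the conservative list. The 1 E(spl) gene within 1 kb became 3 within 2 kb, with E(spl)malpha-BFM and E(spl)mdelta-HLH added, 2 in the conservative list, and 0 where a summit counted only for the nearest TSS of any annotated gene. The share of all protein-coding genes rose from 7.90% to 10.02% within 2 kb and to 14.4% in the conservative list. It fell to 5.34% where a summit counted only for the nearest TSS of any annotated gene. Of 2 shared windows with a homeodomain word, 1 had it within 100 bp. Leaving out 1 replicate at a time gave 6 to 7.5 peaks, 4 to 5 regions, 1 gene and 8.76% to 9.37% of genes. The other alternatives moved these counts and shares by less than 1.5 times. The percentiles of single regions depended on the scale. Ranked by the deposited score, regions 7 and 9 fell from mean percentiles of 69.3 and 93.2 to 58.1 each, tied with region 3 at a score of 1000. Within the ranked list, regions 1, 3, 7 and 9 stood at 98.1, 99.0, 99.0 and 99.8. The cause of the moves in counts was not tested. No paired analysis was possible because there is 1 group. Depth is unknown, so a site absent from a list may be below detection.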
